A study of Saccharomyces cerevisiae with 12 samples.

Results

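ATG19 and ATG34 are neighbouring genes on chromosome XV of budding yeast (Saccharomyces cerevisiae), and the study places one of its ubiquitin hotspots (ub-hotspots) at this pair. They are described here together with 4 genes of the same transport route, the cargo genes APE1, AMS1 and APE4 and the scaffold gene ATG11 (YOL082W, YOL083W, YKL103C, YGL156W, YHR113W and YPR049C in the order named). Each of these 6 genes has 1 probe set on the array, found by its systematic name, and they are 6 of the 5581 yeast genes tested. The 12 Affymetrix Yeast Genome 2.0 arrays form 4 groups of 3, which the series calls biological triplicates. In experiment A, a strain that lacks EUC1 (ymr111c/euc1∆) was set against wild type (WT). In experiment B, a strain with the K231R exchange in Euc1 (ymr111c/euc1-K231R) was set against WT arrays of its own. Each mutant is 1 strain, and both WT groups carry the same strain name. According to the study's supplement the euc1-K231R allele also carries a URA3 marker, so the exchange and the marker cannot be told apart. The medium of all cultures was rich and held 2% glucose, the temperature was 30°C and cells were taken in mid-log phase, so no group was starved.

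The cytoplasm-to-vacuole targeting (Cvt) pathway is a selective form of autophagy that runs in growing yeast cells. It carries enzymes made in the cytoplasm into the vacuole inside small double-membrane vesicles: the precursor of aminopeptidase I (Ape1), the alpha-mannosidase Ams1 and the aspartyl aminopeptidase Ape4. Atg19 is the receptor that binds these cargoes, Atg11 is the scaffold that brings the receptor to the site of vesicle formation, and Atg8 on the membrane holds the receptor there. Atg34 is a paralogue of Atg19 known for the delivery of Ams1 during starvation. Ub-hotspots are chromosomal sites at which ubiquitin accumulates through the SUMO-targeted ubiquitin ligase Slx5/Slx8, and Euc1 is the DNA-binding protein found there. The study describes the lysine exchanged in K231R as the residue at which Euc1 is modified by SUMO, and describes both mutants as lacking the ub-hotspots.

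The values are log2 expression intensities made with RMA (robust multi-array average), and fold changes are mutant minus WT on that log2 scale. The median over all yeast genes lay between 10.4 and 10.6 on the 12 arrays, and the SD of the typical gene over 3 replicates was 0.05 to 0.07. EUC1 checks the label of euc1∆. Its level was 3.72, 3.88 and 3.64 in euc1∆ cells, against 9.02, 9.15 and 9.14 in WT, and 8.19, 8.15 and 8.12 in euc1-K231R cells, against 9.18, 9.25 and 9.09 in WT. In euc1∆ it was thus below 5.30, the 95th percentile of the probe sets for fission yeast RNA, which has no target in these samples. In euc1-K231R its transcript was lower by about 1 log2 unit (limma, -1.02 ± 0.05 SE, adjusted p = 0.00018). This is a further difference from WT, which cannot be told apart from the exchange and the marker. For Euc1 protein the study reports a mildly higher level in cells with this exchange. All 6 genes of interest lay above the fission yeast level on every array. Replicate 3 of euc1∆ and replicate 3 of euc1-K231R each set apart several of the values below, and values are given without them where this moved a result.

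ATG19 (YOL082W), the Cvt receptor, was the one gene of the 6 that was higher than WT on all arrays of both mutants. In euc1∆ cells its level was 10.37, 10.29 and 10.05, against 9.76, 9.82 and 9.85 in WT. All 3 mutant arrays lay above all 3 WT arrays, and replicate 3 was the lowest of the mutant arrays. The means were 10.24 ± 0.17 in euc1∆ and 9.81 ± 0.04 in WT (SD, n = 3 each), a log2 fold change of 0.43 (95% interval 0.23 to 0.62), or 1.34-fold. In these cultures, a change of RNA per cell and a change in the share of cells that express the gene cannot be told apart. The value was the 7th highest fold change of the 5581 genes. It did not pass after adjustment over all genes in the 6-array limma fit (adjusted p = 0.203), in which 0.125% of genes were called. Without euc1∆ replicate 3 the fold change was 0.52 and passed (adjusted p = 0.0331). It did not pass without any other single array, where it was 0.36 to 0.44 (adjusted p = 0.337 to 0.569).

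In euc1-K231R cells ATG19 had levels of 9.69, 9.81 and 9.62, against 9.57, 9.54 and 9.51 in WT. The groups again did not overlap, but the lowest mutant array stood close above the highest WT array. The means were 9.71 ± 0.10 in euc1-K231R and 9.54 ± 0.03 in WT (SD, n = 3 each). The log2 fold change was 0.17 (95% interval 0.04 to 0.30), or 1.12-fold, and did not pass (adjusted p = 0.182), in a comparison in which 0.896% of genes were called. Mutant arrays above WT arrays without overlap were found for 9.84% of all genes in experiment A, for 14.0% in experiment B, and for 68 genes (1.22%) in both.

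The mean of both mutant effects, taken in 1 fit of all 12 arrays, averages the effect of euc1∆ and that of euc1-K231R, and a gene that moved in one of the mutants can also pass by it. This comparison was chosen with earlier results of these data known. By this measure ATG19 rose by 0.30 ± 0.05 (SE), or 1.23-fold (95% interval of the log2 value 0.18 to 0.41, adjusted p = 0.0327). It was the one member called, where 0.573% of genes were called in total and 0.143% (8 genes) were called higher in the mutants. The call changed with single arrays. It was kept in 2 of 12 fits that left out 1 array (without euc1∆ replicate 3 and without euc1-K231R replicate 3). In the other 10 the adjusted p was 0.0504 to 0.100 with log2 fold changes of 0.26 or more. The fold change was larger in euc1∆ than in euc1-K231R by 0.26 ± 0.11 (SE), and this difference did not pass (adjusted p = 0.253, with 1.25% of genes called for a difference). In the limma mean of both effects, MED11 (YMR112C), a gene next to EUC1, was called lower (-0.33, adjusted p = 0.0023). The study gave strains of its genetic interaction assays an extra copy of MED11. Lower MED11 and altered Euc1 cannot be told apart here, and the part of MED11 in the values of ATG19 was not tested.

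**Figure D1:**
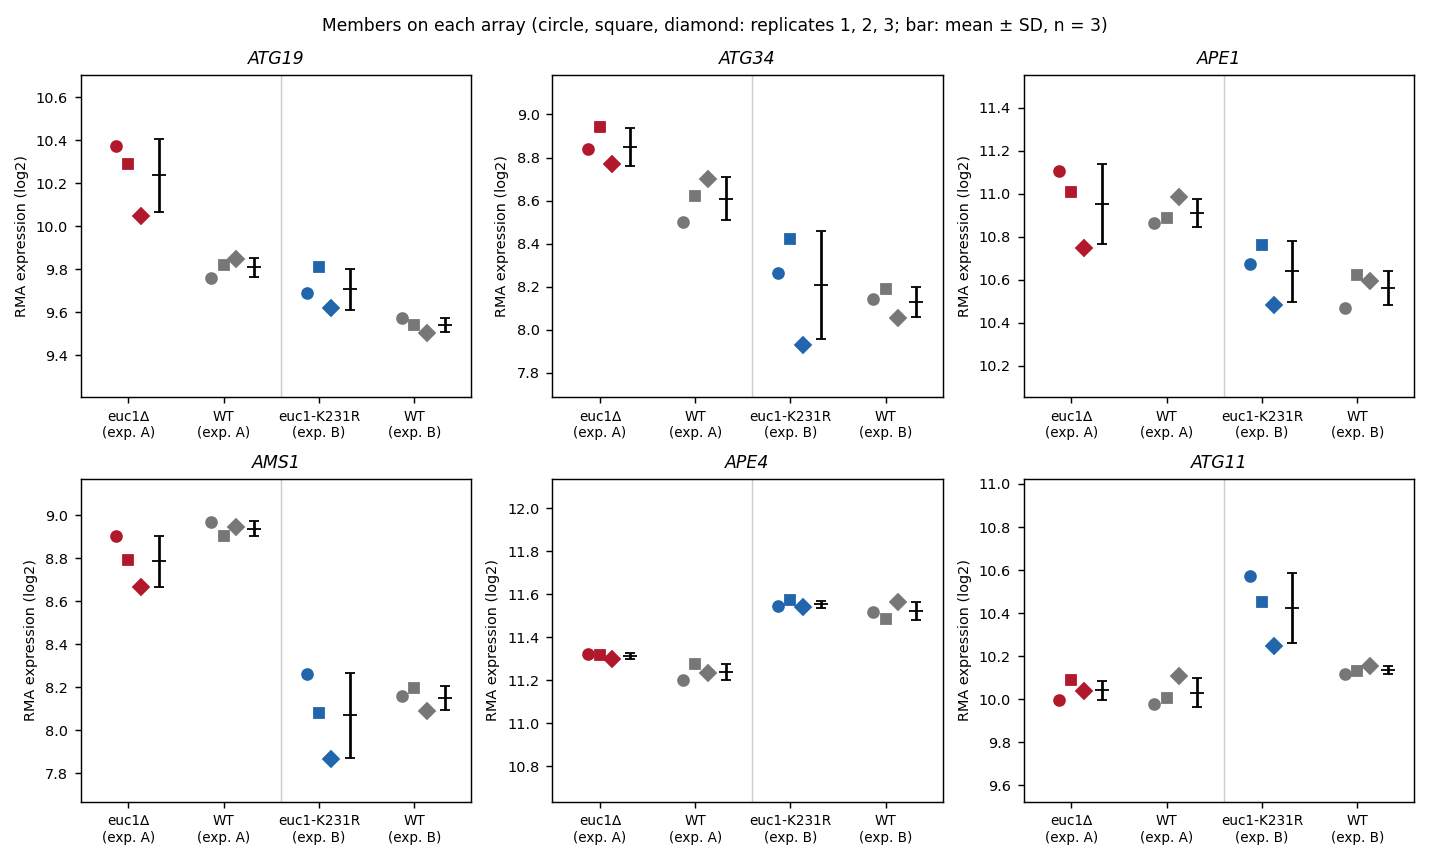
RMA log2 expression of the 6 genes on each of the 12 arrays. The x axis gives the groups, each mutant left of its own WT, the symbols mark replicates 1 to 3, the black bars are mean ± SD (n = 3), and every panel spans the same range on the log2 scale. ATG19 lies above WT without overlap in both mutants, ATG34 and APE4 in euc1∆ and ATG11 in euc1-K231R; levels are to be compared within an experiment and within a panel.

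ATG34 (YOL083W), the starvation-linked paralogue, was above WT on all arrays of euc1∆ and on 2 of 3 arrays of euc1-K231R. Its levels in euc1∆ were 8.84, 8.94 and 8.77, against 8.50, 8.62 and 8.70 in WT. The arrays did not overlap, with the lowest mutant array close to the highest WT array. The log2 fold change was 0.24 ± 0.07 (SE), or 1.18-fold, with an adjusted p of 0.256. In euc1-K231R cells the levels were 8.26, 8.42 and 7.93, against 8.14, 8.19 and 8.05 in WT. Replicate 3 of the mutant lay below all WT arrays and the other mutant arrays above them, so that the SD was 0.25 in euc1-K231R and 0.07 in WT. The fold change of 0.08 (95% interval -0.19 to 0.35, adjusted p = 0.728) changed to 0.22 without replicate 3 and to -0.03 without replicate 2. The mean of both effects was 0.16 ± 0.07 (SE) and did not pass with all arrays (adjusted p = 0.278). Without euc1-K231R replicate 3 it was 0.23 and passed (adjusted p = 0.0460). It passed without no other single array, where it was as low as 0.11 (adjusted p up to 0.504). The 2 mutant effects on ATG34 differed by 0.16 ± 0.15 (SE, adjusted p = 0.604).

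The cargo genes gave fold changes smaller in size than those of ATG19 in both mutants. APE1 (YKL103C), which encodes the main cargo of the pathway, had levels of 11.10, 11.01 and 10.75 in euc1∆, against 10.86, 10.89 and 10.98 in WT. The mutant arrays lay on both sides of the WT arrays. In euc1-K231R its levels were 10.67, 10.76 and 10.48, against 10.47, 10.62 and 10.59 in WT, again with overlap. The log2 fold changes were 0.04 in euc1∆ (95% interval -0.18 to 0.26, adjusted p = 0.874) and 0.08 in euc1-K231R (-0.11 to 0.26, adjusted p = 0.605). Without replicate 3 of the mutant they were 0.14 in euc1∆ and 0.15 in euc1-K231R, and without replicate 2 of euc1-K231R the value there was 0.016. As for ATG19 and ATG34, replicate 3 was the lowest array in both mutants.

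APE4 (YHR113W), the aspartyl aminopeptidase, had the smallest spread between replicates of the 6 genes in both mutants. Its levels were 11.32, 11.32 and 11.30 in euc1∆, against 11.20, 11.27 and 11.24 in WT, where the groups did not overlap. In euc1-K231R they were 11.55, 11.57 and 11.54, against 11.52, 11.48 and 11.56 in WT, with overlap. The log2 fold change was 0.08 ± 0.03 in euc1∆ (adjusted p = 0.428) and 0.03 ± 0.04 in euc1-K231R (SE, adjusted p = 0.687). The 95% interval of the mean of both effects reached from -4.5e-05 to 0.11, so that a change as large as that of ATG19 lay outside it.

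AMS1 (YGL156W), the mannosidase that both receptors carry, was the one gene of the 6 with negative values in both mutants. In euc1∆ its levels were 8.90, 8.79 and 8.66, against 8.97, 8.90 and 8.94 in WT. The highest mutant array met the lowest WT array. The log2 fold change of -0.15 (95% interval -0.30 to -0.0037) did not pass (adjusted p = 0.396), and was -0.09 without replicate 3. In euc1-K231R the levels were 8.26, 8.08 and 7.87, against 8.16, 8.20 and 8.09 in WT. The mutant arrays lay on both sides of the WT arrays, and the fold change was -0.08 ± 0.09 (SE, adjusted p = 0.658), or 0.02 without replicate 3 and -0.18 without replicate 1.

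ATG11 (YPR049C), the scaffold of selective autophagy, was above WT on all arrays of euc1-K231R, with no such separation in euc1∆. In euc1∆ cells its levels were 10.00, 10.09 and 10.04, against 9.98, 10.01 and 10.11 in WT, with overlap and a log2 fold change of 0.01 (95% interval -0.10 to 0.12, adjusted p = 0.946). In euc1-K231R cells they were 10.57, 10.45 and 10.25, against 10.12, 10.13 and 10.16 in WT. All mutant arrays lay above the WT arrays, and replicate 3 stood nearest to them. The fold change was 0.29 ± 0.08 (SE), or 1.22-fold, the 25th highest of all genes, and did not pass (adjusted p = 0.146). Without euc1-K231R replicate 3 it was 0.38 and passed (adjusted p = 0.0348). It passed without no other single array, where it was as low as 0.21 (adjusted p up to 0.427). The difference between the mutant effects was -0.28 ± 0.10 (SE, adjusted p = 0.195) with all arrays. It was -0.37 without euc1-K231R replicate 3 (adjusted p = 0.0409) and passed without no other single array (adjusted p up to 0.371).

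**Figure D2:**
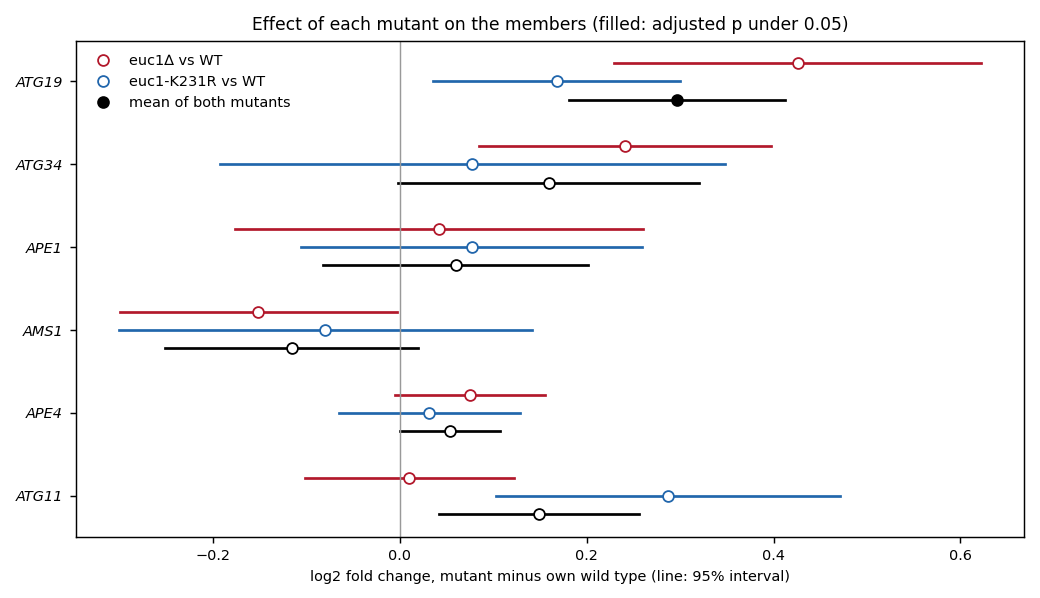
Log2 fold change of the 6 genes in euc1∆ against WT, in euc1-K231R against WT, and as the mean of both mutants, with 95% intervals from limma. Filled points have an adjusted p under 0.05 over all 5581 genes. The single filled point is the mean effect on ATG19 (0.30); the intervals of ATG19 exclude 0 in both mutants before adjustment for the number of genes.

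In total, none of the 6 genes was called in either comparison with WT by limma. At an unadjusted p under 0.05 there were 3 in euc1∆ (ATG19 and ATG34 higher, AMS1 lower) and 2 in euc1-K231R (ATG19 and ATG11, both higher), where 12.4% and 19.4% of all genes were at that level. In euc1∆ 6.36% of all genes were higher at that level and 6.0% lower, and in euc1-K231R 8.94% were higher and 10.4% lower. The median fold change of the 6 was 0.06 in euc1∆ and 0.08 in euc1-K231R, against 0.00 over all genes in both. The arrays of the groups did not overlap for 3 of the 6 in euc1∆ and 2 of the 6 in euc1-K231R, where 18.1% and 25.8% of all genes had this property.

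The genes on either side of the pair gave no call. ATG34 and ATG19 are read in the same direction, and the RefSeq table places no annotated gene between them. The 3 nearest measured genes on the ATG34 side are PHM7, ADH1 (the main alcohol dehydrogenase of fermenting cells) and MHF1 (a histone-fold protein that acts in DNA repair). On the ATG19 side they are IRA2 (an inhibitor of Ras signalling), REX4 and AVO1 (a subunit of TOR complex 2). The log2 fold changes of these 6 neighbours lay between -0.14 and 0.12 in euc1∆ and between -0.14 and 0.01 in euc1-K231R, and for none of them were the arrays of the groups apart. None was called (adjusted p of 0.402 or more), and none had an unadjusted p under 0.05. IRA2, which follows ATG19 on the chromosome, had values of -0.07 ± 0.06 in euc1∆ and -0.04 ± 0.05 in euc1-K231R (SE), and PHM7, which precedes ATG34, of 0.04 ± 0.08 and -0.14 ± 0.09.

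**Figure D3:**
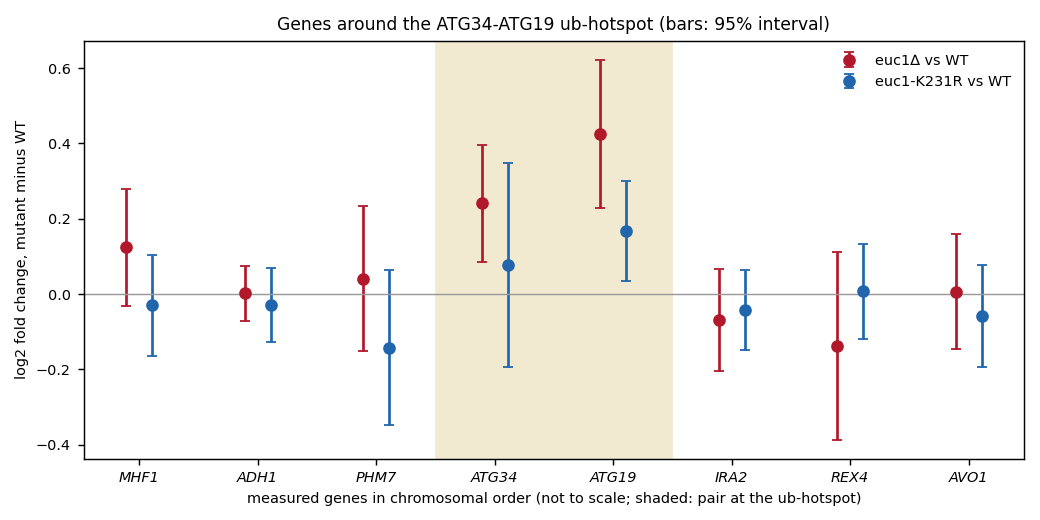
Log2 fold change of euc1∆ and of euc1-K231R against their own WT for ATG34, ATG19 and the 3 nearest measured genes on each side, in chromosomal order and not to scale. Points are limma estimates and bars 95% intervals. The intervals of all 6 flanking genes hold 0 in both mutants, those of ATG19 in neither.

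Among 12 other genes next to ub-hotspots, a list taken from the study, 1 was called higher and 2 lower in euc1-K231R, and none was called in euc1∆ (3 at an unadjusted p under 0.05). Over all genes 0.896% were called in euc1-K231R, and 12.4% were at an unadjusted p under 0.05 in euc1∆. SSF2, a ribosome assembly factor, had levels of 9.38, 9.44 and 9.76 in euc1∆, against 10.45, 10.26 and 10.38 in WT, and 9.85, 9.95 and 10.00 in euc1-K231R, against 10.49, 10.35 and 10.35 in WT. Its direction was thus the opposite of that of ATG19. It did not pass in euc1∆ (-0.84, adjusted p = 0.0820) and fell in euc1-K231R (-0.46, adjusted p = 0.0210), and its mean effect was -0.65 ± 0.06 (SE, adjusted p = 0.00035). RCO1 (0.17) and MCH1 (0.16) went in the direction of ATG19 in euc1∆. All their mutant arrays lay above WT there, as for 9.84% of all genes. In euc1-K231R MCH1 had -0.16, and the arrays of RCO1 overlapped with WT. By RNA sequencing of euc1∆ cells, another platform, the study found RCO1 significantly higher and SSF2 significantly lower. It reports no other gene in direct proximity of a ub-hotspot as significantly changed there. SDD2 was higher in euc1-K231R (0.36, adjusted p = 0.0268) and PEX9, a peroxisomal import receptor whose levels were at or under 5.51 on every array, was lower (-0.58, adjusted p = 0.0483). In euc1-K231R the levels of PEX9 (4.57 to 4.92) were under the fission yeast level of 5.30. Without euc1-K231R replicate 2, SSF2, SDD2 and PEX9 no longer passed in that mutant (adjusted p = 0.140, 0.169 and 0.193). The same held without WT replicate 1 of experiment B (adjusted p = 0.0868, 0.157 and 0.214), for SDD2 and PEX9 without WT replicate 3 (0.0556 and 0.0653) and for PEX9 without WT replicate 2 (0.0987).

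Autophagy in yeast uses a shared machinery that makes the vesicle, factors that are particular to the Cvt route or to starvation, and a set that opens the vesicle in the vacuole. Of 43 other genes of this kind, none was called in either mutant. At an unadjusted p under 0.05 there were 3 in euc1∆, all lower, and 5 in euc1-K231R, 1 higher and 4 lower, where 12.4% and 19.4% of all genes were at that level. Their median log2 fold change was 0.01 in euc1∆ and 0.00 in euc1-K231R.

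In the core machinery (17 genes), ATG10, the enzyme that joins Atg12 to Atg5, had values of -0.16 ± 0.04 in euc1∆ (adjusted p = 0.246) and -0.11 ± 0.06 in euc1-K231R (SE). ATG8, whose product binds the receptors on the membrane, had values of 0.02 ± 0.09 in euc1∆ and -0.18 ± 0.05 in euc1-K231R (SE, adjusted p = 0.126). ATG7, which activates Atg8 and Atg12, had 0.07 and 0.13, and ATG16, the partner of Atg12-Atg5, had -0.15 and -0.31. On all arrays of experiment B the level of ATG16 (4.64 to 5.29) was under the fission yeast level of 5.30. Of the 11 accessory factors of the Cvt pathway, VPS45, a regulator of membrane fusion, had -0.14 ± 0.04 in euc1∆ (adjusted p = 0.246) and 0.08 in euc1-K231R. The sorting nexin SNX4 had -0.04 and -0.15, the phosphoinositide-binding protein ATG21 -0.05 and 0.09, and ATG27, a membrane protein that helps move Atg9, 0.02 and -0.11. None of these passed.

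The 4 starvation-specific factors were between -0.09 and 0.19 in euc1∆ and between -0.15 and 0.02 in euc1-K231R. ATG29, a subunit of the starvation scaffold, gave 0.19 ± 0.11 in euc1∆ and -0.15 ± 0.11 in euc1-K231R (SE), and ATG38, a subunit of the autophagy lipid kinase complex, -0.09 and -0.12. Of the receptors of other routes, ATG39, for the nuclear envelope, had 0.02 in euc1∆ and -0.26 ± 0.12 (SE) in euc1-K231R, ATG36, for peroxisomes, 0.00 and 0.12, CUE5, for ubiquitylated proteins, 0.06 and 0.02, and ATG40, for the endoplasmic reticulum, -0.08 and 0.00. None of these 5 receptors was at an unadjusted p under 0.05 in either mutant. Of the 6 genes that fuse and open the vesicle, MON1, which helps activate the fusion machinery of the vacuole, had the value farthest from 0, -0.14 ± 0.06 (SE) in euc1-K231R.

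**Figure D4:**
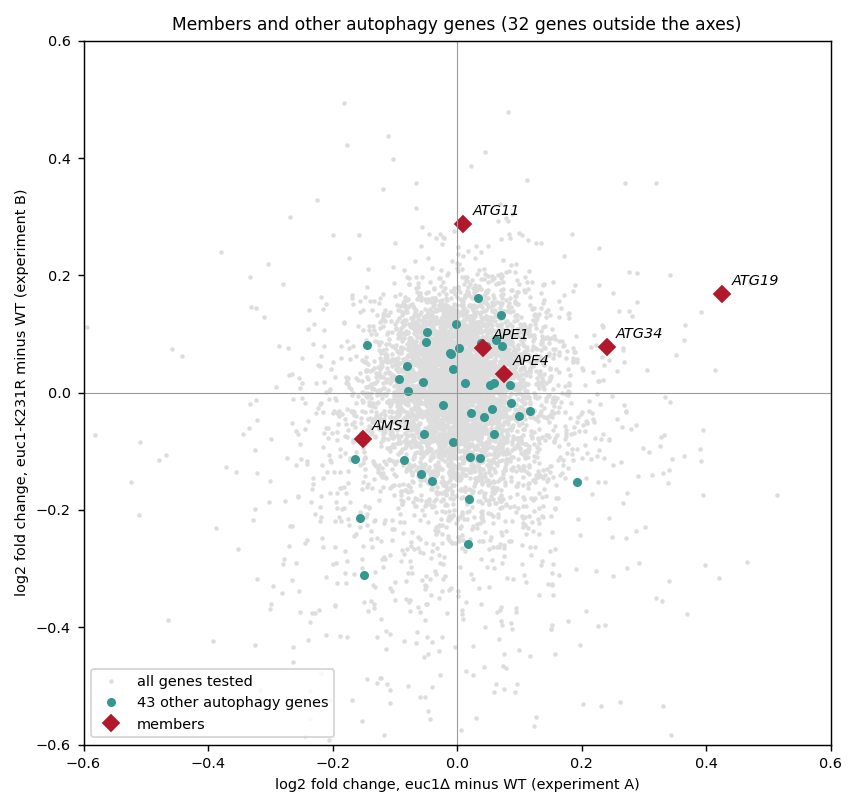
Log2 fold change in euc1∆ (x axis) against that in euc1-K231R (y axis), each from its own WT, for the 6 genes of the pair and its pathway, 43 other autophagy genes and all genes tested (32 genes lie outside the axes). ATG19 lies farthest to the right of the autophagy genes (0.43) and ATG11 highest (0.29), while the 43 others lie between -0.16 and 0.19 on the x axis and between -0.31 and 0.16 on the y axis. The lowest y value is that of ATG16, whose levels in experiment B were under the fission yeast level of 5.30.

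Genes further down the route and upstream of ATG transcription gave no calls either. The 8 vacuolar hydrolases had a median of 0.01 in euc1∆ and -0.10 in euc1-K231R, where all 8 values were below 0 and 3 were at an unadjusted p under 0.05. Of all 5581 genes 2701 were below 0 in euc1-K231R, and 10.4% were lower at that unadjusted p. PEP4, the protease that matures the others, had -0.01 ± 0.04 in euc1∆ and -0.14 ± 0.04 in euc1-K231R (SE, adjusted p = 0.171), and DAP2, an aminopeptidase of the vacuole membrane, 0.01 and -0.17. PHO8, the vacuolar alkaline phosphatase, had 0.12 ± 0.04 in euc1∆ (adjusted p = 0.288) and -0.09 in euc1-K231R. Of 9 transcriptional regulators of ATG genes, PHO23 and SIN3, subunits of the Rpd3 histone deacetylase complex, had 0.02 and -0.07 in euc1∆ and 0.19 and 0.13 in euc1-K231R. UME6, which recruits that complex and is known to hold down ATG8, had 0.05 in euc1∆ and 0.12 in euc1-K231R.

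Markers of growth state are given beside these results. In euc1∆ none of them was called and the array means overlapped those of WT, and in euc1-K231R the array means of both lists lay below WT. ATG genes are known to respond to nitrogen starvation. Of 8 nitrogen starvation markers, 2 were at an unadjusted p under 0.05 in euc1∆, both lower, where 6.0% of all genes were lower at that level. In euc1-K231R 2 were lower at that level, where 10.4% of all genes were. GAP1, the general amino acid permease, fell by 0.68 ± 0.09 (SE) in euc1-K231R (adjusted p = 0.0210), where 0.896% of all genes were called. No nitrogen marker was called higher, and the array means of the list were 8.47 to 8.59 in euc1∆, against 8.57 to 8.62 in WT, and 8.67 to 8.78 in euc1-K231R, against 8.80 to 8.83 in WT. The means of 7 general stress markers were 9.05, 8.81 and 8.48 in euc1∆, against 8.70, 8.81 and 8.84 in WT. Replicate 3 of euc1∆ was thus the lowest array of experiment A for the stress markers, and the lowest of the mutant arrays for ATG19. In euc1-K231R the stress means were 8.80, 8.68 and 8.59, against 9.03, 9.34 and 9.00 in WT, with all mutant arrays below WT. There the stress proteins HSP12 (-0.88, adjusted p = 0.0268) and DDR2 (-0.84, adjusted p = 0.0486) fell, 2 calls of 7 where 0.896% of all genes were called. Without euc1-K231R replicate 2, GAP1, HSP12 and DDR2 did not pass (adjusted p = 0.124, 0.168 and 0.219). GAP1 also did not pass without WT replicate 2 of experiment B (0.0542) nor HSP12 without WT replicate 1 (0.0876), and of the fits without 1 array DDR2 passed in the one without euc1-K231R replicate 1 and in none of the others (0.0593 to 0.219). HSP26, a small heat shock chaperone, had 0.37 ± 0.07 in euc1∆ and -0.38 ± 0.10 in euc1-K231R (SE) and passed in neither (adjusted p = 0.203 and 0.146). TKL2 was lower in both, -0.41 ± 0.12 and -0.49 ± 0.12 (SE), and also passed in neither (adjusted p = 0.283 and 0.122). At an unadjusted p under 0.05, 1 stress marker was higher and 1 lower in euc1∆, where 6.36% and 6.0% of all genes were. In euc1-K231R 5 were lower at that level, where 10.4% of all genes were, and none was higher. The part of growth state in the values of ATG19, ATG34 and ATG11 was not tested.

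The labels name neither mating type nor ploidy. None of 5 markers of mating type a or 4 of mating type alpha was called in either mutant (2 and 2 at an unadjusted p under 0.05 in euc1∆, 3 and 1 in euc1-K231R, against 12.4% and 19.4% of all genes). The array means were 12.12 to 12.62 for the a markers and 6.65 to 7.02 for the alpha markers. MF(ALPHA)1, an alpha marker at that unadjusted p in euc1∆, lay under the fission yeast level of 5.30 on every array (3.73 to 4.27). Of 5 sporulation markers, SPS22 (-0.84, adjusted p = 0.0074) and HOP1 (-0.55, adjusted p = 0.0210) fell in euc1-K231R, where 0.896% of all genes were called. Neither passed without euc1-K231R replicate 2 (adjusted p = 0.0692 and 0.153), and HOP1 not without its replicate 1 (0.0510). SPS22 had levels of 5.03, 5.18 and 5.31 in euc1-K231R, near the fission yeast level of 5.30. At an unadjusted p under 0.05, 3 markers were lower there and 1 was higher, where 10.4% and 8.94% of all genes were. IME1 went the other way (0.23), with all euc1-K231R arrays above WT, as for 14.0% of all genes. None was called in euc1∆ (1 at an unadjusted p under 0.05, where 12.4% of all genes were).

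Some genes followed ATG19 more closely over the 12 arrays than any member did. After the mean of each gene in each experiment was subtracted, the closest were HFD1 (Pearson r = 0.955), MUP3 (0.929) and YBR071W (0.928), with log2 fold changes of 0.22, 0.36 and 0.28 in euc1∆ and 0.08, 0.09 and 0.13 in euc1-K231R. HFD1 encodes a fatty aldehyde dehydrogenase and lies next to EUC1 on chromosome XIII, and MUP3 is a low-affinity methionine permease. ATG34 was followed most closely by MET22 (0.926), RAM1 (0.916) and SMX3 (0.904), which encode a nucleotidase linked to methionine synthesis and salt tolerance, a subunit of protein farnesyltransferase and a core protein of the splicing machinery. ATG19 and ATG34 had an r of 0.767 with each other, ATG19 and APE4 of 0.781, and ATG19 and AMS1 of -0.247. Ranked by r with ATG19 among all genes, APE4 was the 91st and ATG34 the 115th. These correlations describe 12 arrays that share the mutant-to-WT contrast within each experiment, and carry no test.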

How the data were processed

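RNA was biotin-labelled from 300 ng per sample and hybridised to Affymetrix arrays. The authors deposited RMA-normalised log2 values (versions not given in the sources used here). They also deposited log2 fold changes and adjusted p-values per mutant, which were not used. Of 10928 probe sets, 5713 were for S. cerevisiae; 132 that match several transcripts were left out. Symbols came from the RefSeq R64 table (5564 of 5581 genes matched), which served only for names and gene order. Each mutant was compared with its own wild type in limma 3.58.1 (R 4.3.3; lmFit, eBayes), and the mean and difference of effects in a 12-array fit of 4 group means, with Benjamini-Hochberg adjustment over 5581 genes and a threshold of 0.05. Code was tested on simulated data, and figures were drawn with matplotlib 3.10.9. With 3 arrays per group, precision is limited.

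The genes, the lists and the mean of both mutant effects were chosen with earlier results of these data known. Named are the 6 genes, EUC1, the 3 nearest measured genes on each side, up to 4 genes per list with the smallest p in either comparison with wild type, and the 3 genes that follow ATG19 and ATG34 most closely. RCO1 (in euc1∆) and IME1 (in euc1-K231R) are also named, as the genes with the highest fold change of their lists. MED11 is named as a gene next to EUC1, and its call was not tried under the alternatives below. Lists are described by counts and medians. Alternatives were quantile normalisation, median centring, a filter at the S. pombe level, all probe sets, a trended robust prior, array weights, a replicate block, a 12-array fit and leaving out each array. The default estimate of array weights did not converge in experiment B and in the 12-array fits, so a gene-by-gene estimate, chosen after seeing this, was used in all fits.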

Additional observations from a re-analysis of the deposited data

Results flagged for a closer look

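For EUC1 and 5 other genes named above the effects of the mutants differed by a test of the difference itself (euc1∆ effect minus euc1-K231R effect, limma, adjusted over 5581 genes); none of the 6 genes of the pair and its pathway was among them. EUC1, the altered gene, had a difference of -4.34 (-5.36 in euc1∆ and -1.02 in euc1-K231R, adjusted p = 1.27e-10). GAP1 had a difference of 0.64 (-0.04 in euc1∆ and -0.68 in euc1-K231R, adjusted p = 0.0227). HSP12 had a difference of 0.98 (0.10 in euc1∆ and -0.88 in euc1-K231R, adjusted p = 0.0328). HSP26 had a difference of 0.75 (0.37 in euc1∆ and -0.38 in euc1-K231R, adjusted p = 0.0328). SDD2 had a difference of -0.42 (-0.07 in euc1∆ and 0.36 in euc1-K231R, adjusted p = 0.0109). HOP1 had a difference of 0.58 (0.03 in euc1∆ and -0.55 in euc1-K231R, adjusted p = 0.0328). Over 19 alternatives the differences kept their sign, and the call was lost in 0 for EUC1, 7 for GAP1, 10 for HSP12, 9 for HSP26, 1 for SDD2 and 11 for HOP1. Of single arrays, euc1∆ replicate 1, euc1-K231R replicate 2 and wild-type replicate 2 of experiment A each ended the calls of GAP1, HSP12, HSP26 and HOP1 when left out (adjusted p = 0.0580 to 0.0965), and the highest adjusted p over all alternatives was 0.125, 0.0992, 0.114 and 0.114 for these genes and 0.0615 for SDD2.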

How the results depend on the processing

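The counts of genes called depended on the settings. For euc1∆ against wild type 7 genes were called, against 11 after quantile normalisation, 2 with all probe sets, 20 with a trended, robust prior, 23 with array weights, 12 in the 12-array fit and 2 to 21 without single arrays. For euc1-K231R 50 were called, against 110 after median centring, 13 with all probe sets, 731 with array weights, 124 in the 12-array fit and 11 to 103 without single arrays. For the difference of effects 70 were called, against 20 with all probe sets, 626 with array weights and 21 to 75 without single arrays. For the mean of effects 32 were called, against 18 with all probe sets, 49 with a trended, robust prior, 983 with array weights and 19 to 143 without single arrays. The causes were not tested.

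The call of ATG19 in the mean of effects (0.30) was kept after quantile normalisation, median centring, the filter at the S. pombe level and the trended, robust prior, and lost with all probe sets (adjusted p = 0.0789). With array weights ATG19 passed in euc1∆ (0.45, adjusted p = 0.0406) and euc1-K231R (0.22, adjusted p = 0.0368), ATG11 in euc1-K231R (0.31, adjusted p = 0.0218) and in the difference (-0.30, adjusted p = 0.0292), and ATG34 and ATG11 in the mean (0.23 and 0.16). Without single arrays the sign turned for APE1 in euc1∆ (-0.034 to 0.14) and in the difference (-0.11 to 0.068), for ATG11 in euc1∆ (-0.017 to 0.049), for ATG34 in euc1-K231R (-0.030 to 0.22), and for AMS1 in euc1-K231R (-0.18 to 0.022) and in the difference (-0.17 to 0.025). Of the other genes called, EUC1 and the mean effect on SSF2 passed under every alternative tried; in euc1-K231R the calls of SSF2, SDD2, PEX9, GAP1, HSP12, DDR2, SPS22 and HOP1 were lost in 4, 5, 8, 4, 3, 7, 1 and 5 of 14 alternatives (13 for PEX9). All 8 were lost without euc1-K231R replicate 2; DDR2 and HOP1 also without another euc1-K231R array, and all but SPS22 and HOP1 also without wild-type arrays (adjusted p = 0.0510 to 0.214).

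Arrays with the same replicate number did not deviate together (correlations of -0.20, 0.11 and -0.21 in experiment A and -0.22, -0.09 and 0.30 in experiment B), so the numbers were not taken as pairs. With the replicate number as a block, 1 gene was called for euc1∆, 27 for euc1-K231R, 21 for the difference and 16 for the mean of effects, in which ATG19 had an adjusted p of 0.123.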
